A study of Homo sapiens with 16 samples.

Results

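The genes described here are 52 human genes whose proteins build and run the mitotic spindle, the kinetochore, condensed chromosomes and the cleavage furrow. They form a list set by gene name, drawn up with earlier results of these data known, and all 52 were found among the 58735 genes of the deposited expression table. Of these, 51 passed the filter used for testing, an average of 1 FPKM or more across all 16 libraries. FPKM is a fragment count divided by exon length and by a measure of library size. PRC1, the microtubule crosslinker of the central spindle, had a mean below 1 FPKM, at 0.186 to 0.743 FPKM, and was not tested. Of its exon bases, 58.4% are shared with overlapping genes in GENCODE 29.

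RNA was sequenced from U2OS, a human osteosarcoma cell line. Cells were transfected either with a control siRNA (siNT) or with one that targets SETD2 (siSETD2), the enzyme that trimethylates lysine 36 of histone H3, and were studied at 48 h after transfection. With each siRNA, cells were untreated, or received for 4 h either 2 mM hydroxyurea (HU), 2 µM VE-822, or HU and VE-822 together at these doses. These 8 groups held 2 libraries each, labelled R1 and R2. The labels do not say whether R1 and R2 were separate cultures, so the p-values given here reflect variation among libraries alone, and part of it could be technical. HU blocks ribonucleotide reductase and so starves replication forks of deoxynucleotides, and VE-822 inhibits ATR, the kinase that senses stalled forks and holds back mitotic entry.

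Most of these genes belong to a shared transcription programme that is low in G1, climbs through G2 and peaks as cells enter mitosis. As background, the MuvB complex binds their promoters at a short element named CHR (cell cycle genes homology region), often near CCAAT boxes bound by NF-Y. In resting cells MuvB joins the DREAM complex and represses these genes, and in G2 it joins B-MYB and FOXM1 and activates them. The protein products capture microtubules at kinetochores, delay anaphase until all chromosomes are attached, compact the chromosomes and pinch the daughter cells apart.

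Levels of the members spanned a wide range. CDC20, the activator of the anaphase-promoting complex, was highest with a mean of 113 FPKM over the 16 libraries, followed by the contractile ring scaffold ANLN at 70.0 FPKM and the spindle assembly factor TPX2 at 66.9 FPKM. Among tested members the lowest were NUSAP1, a spindle microtubule bundler, at 2.32 FPKM and SGO1, the shugoshin that guards centromeric cohesion, at 2.55 FPKM. Part of the exon sequence of 7 members, more than 10% of it, lies in overlapping gene models. NUSAP1 stood highest of those tested at 62.2%, so its fragments cannot be assigned to it with certainty.

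The libraries held 22310806 to 31101932 fragments. SETD2 itself was at 7.34 to 9.25 FPKM in the 8 siNT libraries and 2.01 to 4.62 FPKM in the 8 siSETD2 libraries, without overlap. Of 6 mesenchymal or bone markers, VIM (77.3 to 167 FPKM) and SPARC (89.2 to 250 FPKM) were high and COL1A2 was at 0 to 0.0414 FPKM. The 8 markers of blood, epithelial, endothelial and liver cells summed to 3.14 to 5.26 FPKM over all libraries, and 2 of the 8 reached 1 FPKM. These were the epithelial gene EPCAM (1.52 to 2.18 FPKM) and the T-cell gene CD3D (0.716 to 2.87 FPKM). The 4 libraries with VE-822 alone stood apart from the other 12 in the number of genes that differed from untreated cells. Members were also lower in R1 than in R2 of untreated cells, in 51 of 51 for siNT (median difference -0.36 on the log2 scale) and in 42 of 51 for siSETD2 (median -0.32), while the medians over all tested genes were 0.0031 and 0.019. In the other groups this median difference varied in sign. It was negative in siSETD2 cells with HU as well (-0.11), and positive in siSETD2 cells with both drugs (0.14). It ran from -0.23 in siNT cells with HU (48 of 51 lower in R1) to 0.22 in siNT cells with VE-822 alone (4 of 51). Values within each number, and a fit with a term for the number, are therefore given beside the results.

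RefSeq promoter windows, from 250 bases before to 50 bases after the start site on GRCh38.p14, were given for 44 of the 52 members (48 windows). The windows follow RefSeq starts, and 29 of the 48 lie within 100 bases of the start of the GENCODE 29 gene used for the expression values. CHR was searched as TTTGAA, its variant as TTCGAA and the CCAAT box as CCAAT, on both strands, and CHR and CCAAT letters can share a base, as in MKI67. The CHR letters occurred in 66.7% of the member windows against 15.2% of all 35116 windows, and the variant in 12.5% against 1.45%. CCAAT occurred in 70.8% of member windows against 34.6% of all. A CHR or variant together with CCAAT was found in 56.2% of member windows and 6.38% of all windows. The E2F core TTGGCGC was in 10.4% of member windows and 3.04% of all. These are letter matches and not shown sites.

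The 120 bases before the RefSeq start of 7 members are printed 5′ to 3′ along the gene, with CHR, variant and CCAAT letters of either strand in capitals, to show the range of arrangements. CDC20 (chr1:43358861-43358980, plus strand) has a CHR between a pair of CCAAT boxes, and CEP55 (chr10:93496492-93496611, plus strand), the midbody scaffold, has a CHR on the other strand beside a CCAAT box. Another CHR of CEP55, at -3 on the other strand, crosses the start site and is therefore not marked in the print. NEK2 (chr1:211675622-211675741, minus strand), a centrosome kinase, has CCAAT boxes with no CHR, and KNSTRN (chr15:40382601-40382720, plus strand), a kinetochore adaptor, has neither. These 4 genes had log2 fold changes of -0.49 to -0.39 in HU. NCAPH (chr2:96335646-96335765, plus strand), a condensin subunit whose level was nearly the same in HU, has a single CCAAT box. MKI67 (chr10:128126424-128126543, minus strand), the Ki-67 protein that coats mitotic chromosomes, has a tandem CHR, and CCAAT boxes on the other strand. KIF4A (chrX:70289984-70290103, plus strand), a chromosome and midzone motor, has 1 CHR and 1 CCAAT box. MKI67 and KIF4A both rose in VE-822 alone, where 24.7% of all genes were called in limma. Both calls depended on single libraries, as given below.
CDC20: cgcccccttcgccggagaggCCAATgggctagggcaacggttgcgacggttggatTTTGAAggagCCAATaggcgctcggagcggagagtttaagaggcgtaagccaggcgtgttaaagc
CEP55: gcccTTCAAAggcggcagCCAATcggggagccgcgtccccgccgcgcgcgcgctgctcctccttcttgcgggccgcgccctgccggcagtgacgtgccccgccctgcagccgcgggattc
NEK2: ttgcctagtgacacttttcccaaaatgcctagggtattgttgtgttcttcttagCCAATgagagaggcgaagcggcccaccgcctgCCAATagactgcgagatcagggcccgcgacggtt
KNSTRN: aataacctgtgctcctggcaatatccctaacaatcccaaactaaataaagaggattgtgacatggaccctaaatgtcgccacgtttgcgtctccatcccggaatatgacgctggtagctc
NCAPH: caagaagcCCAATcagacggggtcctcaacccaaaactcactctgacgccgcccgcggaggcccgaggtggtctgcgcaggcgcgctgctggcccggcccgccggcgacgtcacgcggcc
MKI67: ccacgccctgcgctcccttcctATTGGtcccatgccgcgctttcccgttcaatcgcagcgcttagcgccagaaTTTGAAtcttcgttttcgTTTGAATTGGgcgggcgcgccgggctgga
KIF4A: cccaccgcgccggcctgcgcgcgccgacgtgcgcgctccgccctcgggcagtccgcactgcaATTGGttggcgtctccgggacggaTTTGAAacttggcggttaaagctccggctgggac

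In HU, members were lower than in untreated cells nearly throughout. Averaged over both siRNAs, 49 of 51 members had a lower mean, and the median log2 fold change was -0.36 (range -0.76 to 0.061), against 0.011 over all 13088 genes tested. Fold changes are differences of log2(FPKM + 1), which understate the change of low genes. In 20 members the 4 HU libraries all lay below the 4 untreated libraries, against 2.19% of all genes. In 35 members HU was lower in all 4 pairs of libraries with the same siRNA and number, against 11.1% of all genes. In bulk RNA, fewer cells in G2 and mitosis and less of these RNAs per cell cannot be told apart.

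No single member passed the test in the model without a term for replicate number. In limma with Benjamini-Hochberg adjustment over all genes, 0 members were called at 0.05, where 0.107% of all genes were. At an unadjusted p under 0.05, 32 members were lower and 0 higher, against 3.76% and 3.82% of all genes, and limma-voom on recovered fragments called 0 (0.0917% of all genes). Across genes, R1 minus R2 correlated among the 6 groups other than VE-822 alone (0.363 to 0.746). The VE-822-alone groups correlated with each other (0.395) but less or not at all with those 6 (-0.052 to 0.295). A fit with a replicate block, a term for R1 and R2 in those 6 groups, is therefore given beside it, and "the block" below means this term. The term assumes the same shift in all 6 groups, which the members did not have. Their median R1 minus R2, in siNT and siSETD2 cells, was -0.36 and -0.32 untreated and -0.23 and -0.11 in HU. With both drugs it was 0.0097 and 0.14. Calls made with the block rest on this assumption. With the replicate block 11 members fell, against 0.749% of all genes called lower, and 0 rose, against 0.848%. The 11 were AURKA, AURKB, CDCA8, CDC20, TTK, NDC80, NUF2, HJURP, NEK2, TACC3 and CDCA3, and all 11 were among the 19 called lower by limma-voom with the block (1.3% of all genes). How the block was set decided most of these calls. Shares over all genes are given above, and not for the other blocks and left-out libraries that follow. With a separate term for the VE-822-alone groups, added after the values were seen, 6 members were called (AURKA, CDCA8, CDC20, HJURP, TACC3 and CDCA3). With the VE-822-alone groups left out 3 were called (AURKA, CDC20 and TACC3), and with 1 term over all 8 groups 2 (AURKA and TACC3). AURKB, TTK, NDC80, NUF2 and NEK2 were thus called, of these 4 settings of the block in limma, only with the one in the 6 groups. With the block and 1 library left out the count was 0 without siNT untreated R2, siNT HU R1, siNT HU R2 or siSETD2 HU R1, and 1 without siSETD2 HU R2. It was 4 to 7 without any 1 library of VE-822 alone or of siSETD2 cells with both drugs, 22 without siSETD2 untreated R1 and 8 to 13 without any other, while 3 members were called without the block when siSETD2 untreated R1 was left out.

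**Figure D1:**
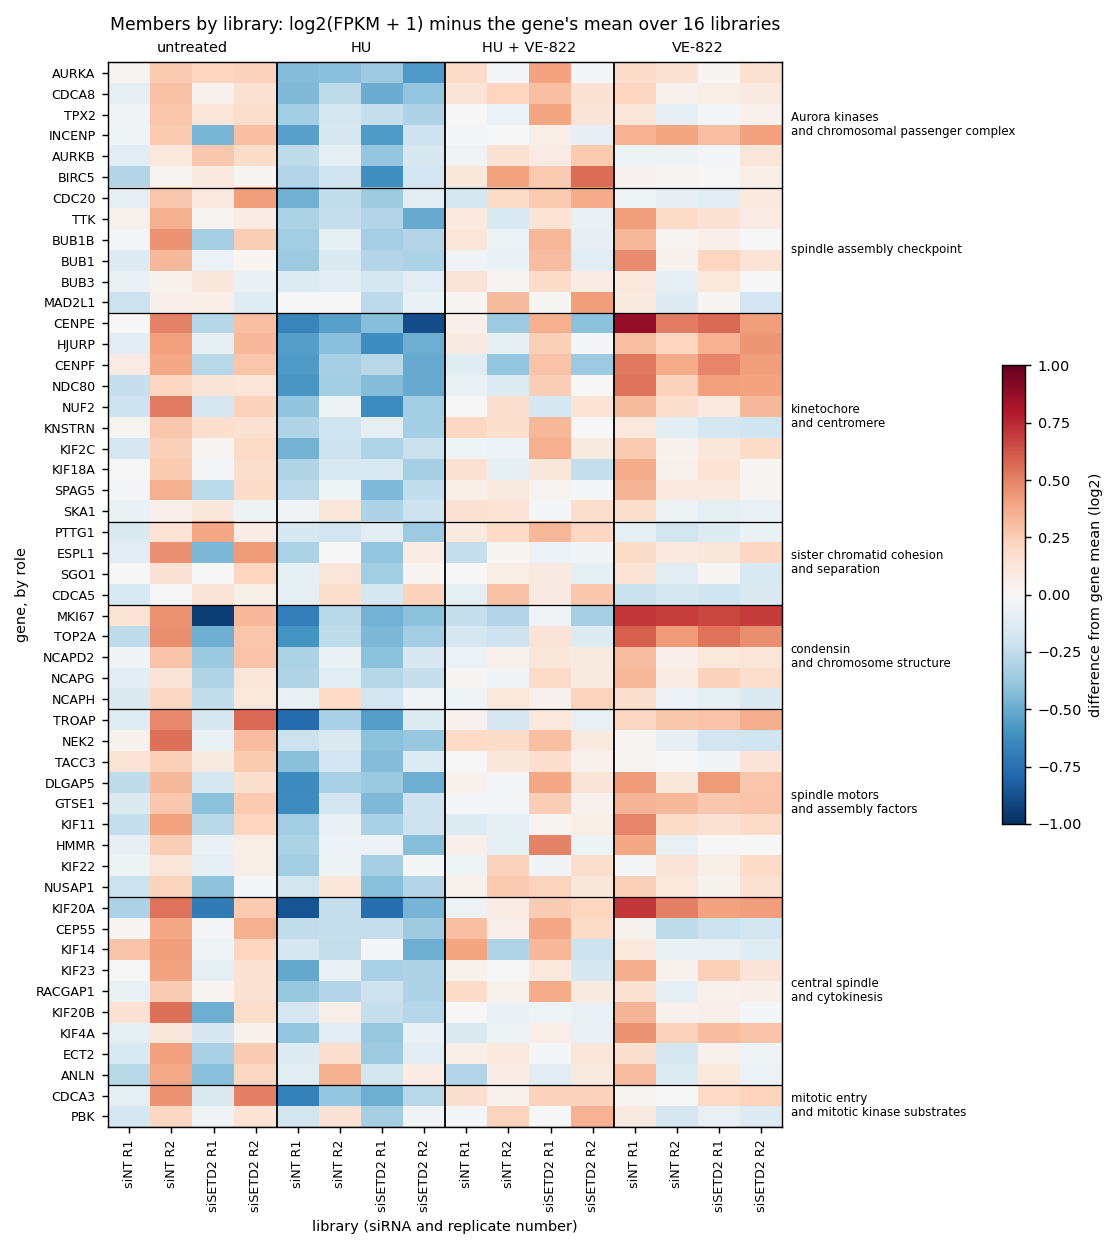
Log2(FPKM + 1) of each of 51 members in each of 16 libraries, minus the gene's mean over all 16, with genes grouped by role (rows) and libraries by treatment (columns); red is above and blue below the gene's mean. The 4 HU libraries are below the mean in most rows, and untreated R1 libraries are lower than untreated R2 libraries.

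Values below are in the order siNT R1, siNT R2, siSETD2 R1 and siSETD2 R2. The Aurora kinases and the chromosomal passenger complex, which correct faulty attachments and guide cytokinesis, had 6 of 6 members lower in HU, with a median of -0.39, and 3 of 6 were called with the replicate block. AURKA, the centrosomal Aurora kinase (ENSG00000087586, GENCODE 29 on GRCh38, chr20:56369389-56392337 on the minus strand), held 28.4, 33.5, 32.5 and 32.8 FPKM in untreated cells and 20.4, 20.6, 21.4 and 18.5 FPKM in HU. All 4 HU libraries were below all 4 untreated ones, and the mean was 31.8 ± 2.32 FPKM untreated and 20.2 ± 1.24 FPKM in HU (SD, n = 4), which is 63.6% of the untreated level. Its log2 fold change was -0.63 (SE 0.11), with an adjusted p in limma of 0.0743, and 0.0134 with the replicate block. CDCA8, the borealin subunit (chr1:37692418-37709719 on the plus strand), held 22.6, 29.7, 24.8 and 26.9 FPKM untreated and 17.5, 20.02, 16.8 and 18.2 FPKM in HU. The groups did not overlap, and the log2 fold change was -0.49 (SE 0.10; limma adjusted p = 0.132, with the block 0.0202). AURKB, the catalytic subunit, fell with the block (-0.34, SE 0.095, adjusted p = 0.0432 in limma), although siNT R2 in HU at 21.4 FPKM was above siNT R1 untreated at 21.2 FPKM. BIRC5 (survivin) was at 20.1, 25.2, 26.7 and 25.1 FPKM untreated and 20.1, 21.5, 15.9 and 21.6 FPKM in HU. Its groups overlapped, with siNT R1 at 20.1 FPKM in both. TPX2, which activates AURKA on spindle microtubules, was at 64.5, 80.5, 72.1 and 74.9 FPKM untreated and 52.1, 58.9, 56.5 and 53.3 FPKM in HU, with no overlap (-0.40, limma adjusted p = 0.282, with the block 0.0725).

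Of the spindle assembly checkpoint, which delays anaphase while kinetochores are unattached, 6 of 6 members were lower, and the median was -0.34. TTK, the checkpoint kinase MPS1, held 6.84, 8.70, 6.75 and 7.04 FPKM untreated and 5.10, 5.46, 5.20 and 4.35 FPKM in HU. CDC20, which the checkpoint inhibits, held 105, 134, 119 and 149 FPKM and then 79.6, 93.8, 86.9 and 103 FPKM. In both genes every HU library was below every untreated one, though for CDC20 only narrowly (103 against 105 FPKM). Both fell with the replicate block (TTK -0.46, CDC20 -0.47; limma adjusted p = 0.0432 and 0.0170, and 0.167 and 0.331 without it). MAD2L1, the MAD2 subunit of the inhibitory complex, was the member of this group closest to no difference. It held 8.74, 10.7, 10.8 and 9.41 FPKM untreated and 10.3, 10.3, 8.43 and 9.76 FPKM in HU, a log2 fold change of -0.030 with a 95% interval of -0.30 to 0.24.

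All 10 kinetochore and centromere members were lower in HU, with a median of -0.42, and 3 were called with the replicate block. HJURP, the chaperone that loads the centromeric histone CENPA (chr2:233833416-233854566 on the minus strand), held 12.2, 17.98, 12.4 and 16.9 FPKM untreated and 8.75, 9.68, 8.28 and 9.20 FPKM in HU. The groups were well apart, and HU libraries averaged 60.3% of untreated ones (log2 fold change -0.65, SE 0.13, limma adjusted p = 0.127, with the block 0.0271). NDC80, which binds microtubules at the outer kinetochore, held 18.03, 24.99, 23.4 and 23.4 FPKM and 13.97, 16.6, 15.6 and 14.8 FPKM without overlap, and fell with the block (-0.52, limma adjusted p = 0.0470, and 0.167 without it). Its partner NUF2 held 11.7, 20.1, 12.04 and 16.2 FPKM and 10.2, 13.2, 8.51 and 10.6 FPKM. NUF2 fell with the block (-0.45, limma adjusted p = 0.0432, and 0.530 without it), though its groups overlapped in siNT R2. CENPE, the plus-end motor of the kinetochore, had the lowest log2 fold change of all members at -0.76 (SE 0.21). It held 7.56, 11.2, 6.06 and 9.59 FPKM untreated and 4.43, 4.90, 5.39 and 3.65 FPKM in HU, which did not overlap, but its libraries spread more and limma gave an adjusted p of 0.313 (0.0972 with the block). KNSTRN held 9.50, 11.4, 10.6 and 10.5 FPKM and 7.37, 7.99, 8.61 and 7.14 FPKM, again without overlap (-0.39, limma adjusted p = 0.275). SKA1, part of the SKA ring on microtubule tips, was at 5.81, 6.37, 6.70 and 5.89 FPKM and 5.98, 6.76, 4.76 and 5.19 FPKM. Its groups overlapped, and it was lower with HU only in the siSETD2 pairs.

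The 4 genes of sister chromatid cohesion and separation differed less, with a median of -0.20 and 0 of 4 called with or without the block. PTTG1 (securin), which restrains separase, held 19.2, 23.5, 28.1 and 22.4 FPKM untreated and 18.9, 18.4, 19.6 and 16.3 FPKM in HU. The groups overlapped only in that siNT R1 untreated lay below siSETD2 R1 in HU (-0.32, limma adjusted p = 0.409, 0.123 with the block). CDCA5 (sororin), which protects cohesin in S and G2 phase, held 20.6, 23.1, 25.3 and 23.99 FPKM and 21.4, 26.1, 20.3 and 27.3 FPKM. Its log2 fold change was 0.025 (95% interval -0.24 to 0.29).

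Condensin and chromosome structure genes had a median of -0.28, and 0 of 5 were called. MKI67 (chr10:128096659-128126385 on the minus strand) held 40.97, 51.01, 18.9 and 46.8 FPKM untreated and 22.8, 30.5, 26.5 and 27.7 FPKM in HU. One library, untreated siSETD2 R1, was far below the other untreated libraries and below all HU libraries. The log2 fold change was -0.45 (SE 0.22; limma adjusted p = 0.705), and without that library it was -0.77. The library was singled out by its low value, so the second difference is a description only. NCAPH held 27.7, 35.5, 25.8 and 33.1 FPKM and 29.2, 35.4, 26.8 and 29.98 FPKM, a log2 fold change of -0.0055 (95% interval -0.27 to 0.26).

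Spindle motors and assembly factors had 9 of 9 members lower, with a median of -0.36, and 2 were called with the replicate block. TACC3, which bridges spindle microtubules, held 18.6, 20.1, 17.99 and 20.4 FPKM untreated and 12.4, 14.6, 12.2 and 15.2 FPKM in HU. The gap was wide against the spread (-0.48, SE 0.096; limma adjusted p = 0.127, with the block 0.0150). NEK2 held 8.41, 12.4, 7.73 and 10.4 FPKM and 6.94, 7.33, 5.90 and 6.08 FPKM with no overlap and fell with the block (-0.49, limma adjusted p = 0.0488). TROAP, a microtubule-binding protein needed at spindle poles, held 23.8, 36.6, 23.2 and 38.9 FPKM and 14.8, 20.5, 17.5 and 23.5 FPKM. It had the lowest log2 fold change of the group at -0.64 (SE 0.19), its groups overlapped slightly, and it missed the threshold (limma adjusted p = 0.367, 0.0604 with the block). NUSAP1, the least different of the group, was at 1.84, 2.84, 1.48 and 2.25 FPKM and 1.89, 2.58, 1.46 and 1.69 FPKM.

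Of the central spindle and cytokinesis genes, 8 of the 9 tested were lower, with a median of -0.38, and 0 were called with or without the block. KIF20A, the kinesin that brings the passenger complex to the midzone, held 10.9, 20.6, 8.16 and 16.8 FPKM untreated and 7.17, 11.6, 7.79 and 9.74 FPKM in HU. Within each number the HU value was lower, but R1 and R2 differed so much that the groups overlapped (-0.53, limma adjusted p = 0.631, 0.110 with the block). CEP55 held 25.01, 32.6, 24.6 and 32.01 FPKM and 20.7, 20.9, 20.99 and 19.1 FPKM, with no overlap (-0.45, limma adjusted p = 0.301, 0.0859 with the block). ANLN had the highest log2 fold change of all members, 0.061 (95% interval -0.37 to 0.50), at 56.9, 90.2, 51.4 and 79.8 FPKM and 63.8, 88.8, 60.7 and 72.7 FPKM. Its R1 libraries were higher in HU and its R2 libraries lower.

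Of the last pair of members, CDCA3, an adaptor that triggers degradation of the mitotic inhibitor WEE1, held 18.6, 27.6, 17.9 and 28.8 FPKM untreated and 12.1, 15.04, 13.9 and 16.3 FPKM in HU. The groups did not overlap, and it fell with the block (-0.64, SE 0.15; limma adjusted p = 0.0271, and 0.226 without it). PBK, a mitotic kinase, was at 15.8, 20.9, 17.6 and 19.9 FPKM and 15.7, 20.04, 14.1 and 17.7 FPKM, with overlapping groups.

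**Figure D2:**
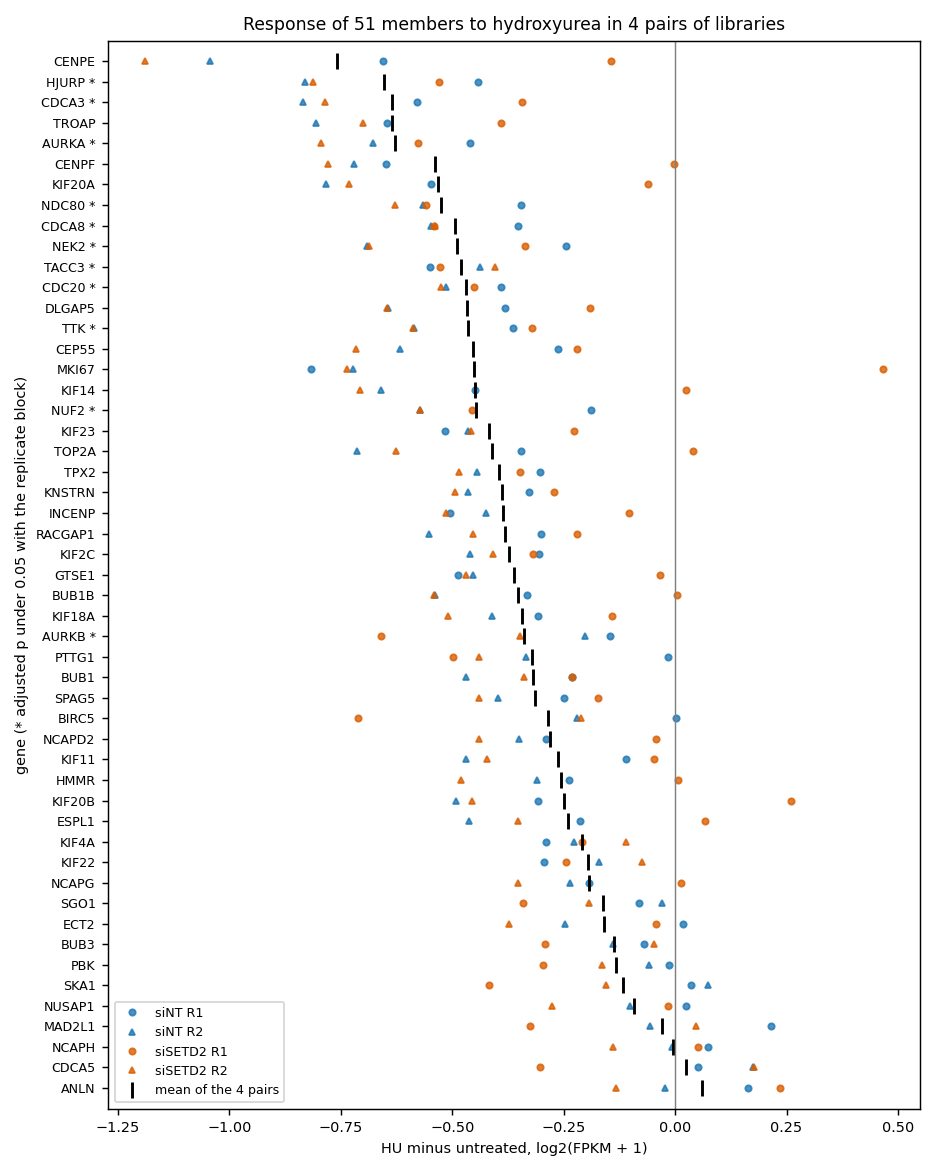
Difference HU minus untreated in log2(FPKM + 1) for each of 51 members (rows, sorted), as 4 pairs of libraries with the same siRNA (colour) and number (circle R1, triangle R2) and their mean (black bar). Most points lie below 0, in most genes the R2 pairs lie further left than the R1 pairs, and ANLN and CDCA5 have means above 0.

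The difference was present with each siRNA and each number. The median over members was -0.38 in siNT and -0.33 in siSETD2 cells. By pair, 43 of 51 members were lower in siNT R1 (median -0.30), 49 in siNT R2 (-0.46), 41 in siSETD2 R1 (-0.23) and 49 in siSETD2 R2 (-0.46). Over all tested genes, 43.3% to 53.6% were lower in these pairs. Within R1 the median over both siRNAs was -0.26 and within R2 -0.46.

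Differences between members with and without these letters were not tested, and the medians are given as a description. The 34 members with a CHR or variant had a median log2 fold change in HU of -0.33 and the 9 without of -0.39. The medians were -0.34 for 31 members with CCAAT and -0.36 for 12 without, and -0.16 for 5 members with the E2F core and -0.37 for 38 without. For both drugs against HU the medians were 0.29 with a CHR or variant and 0.41 without, 0.30 with CCAAT and 0.36 without, and 0.22 with the E2F core and 0.32 without. TACC3, CENPE, KIF2C and KNSTRN, with none of these letters in the window, had lower means in HU (-0.48, -0.76, -0.37 and -0.39), though the RefSeq start of TACC3 lies at -859 bases from its GENCODE 29 start. Starts also lie far apart in members with a CHR or variant, by 55378 bases for NUF2, 780 for CDCA3 and 746 for NCAPD2.

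**Figure D3:**
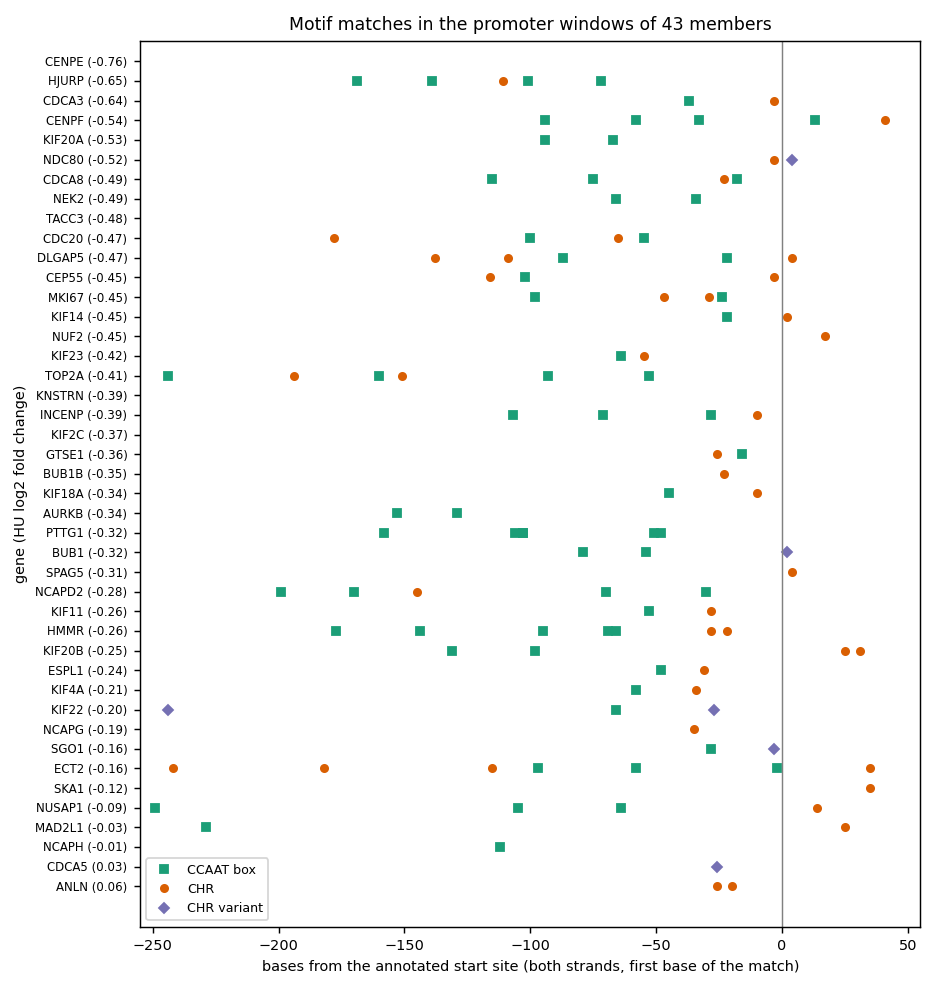
Positions of CHR (circles), CHR variant (diamonds) and CCAAT (squares) letters in RefSeq promoter windows of 43 tested members, in bases from the start site (x axis), with genes ordered by log2 fold change in HU (in brackets). CHR letters cluster near the start and CCAAT mostly upstream, at all sizes of response.

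When VE-822 was added to HU, members were higher than with HU alone. The HU libraries are shared with the comparison above, so a low value in them enters both. The mean was higher in 50 of 51 members, with a median log2 fold change of 0.34 (range -0.094 to 0.71) against 0.014 over all genes. In 29 members all 4 libraries with both drugs lay above all 4 HU libraries, against 3.84% of all genes, and in 39 all 4 same-numbered pairs were higher, against 17.7%. In limma without the block 0 members were called, against 0.00764% of all genes, with 33 higher and 0 lower at an unadjusted p under 0.05 (4.63% and 3.71% of all genes) and 0 called by limma-voom (0.00764%). Fitted with the block, 9 rose, against 0.703% of all genes called higher. They were AURKA, AURKB, BIRC5, CDCA8, CDC20, HJURP, KIF20A, TACC3 and CDCA3, all among the 19 called higher by limma-voom with the block (1.38% of all genes). Of these, AURKA, BIRC5, CDCA8, CDC20 and CDCA3, 5 members, were called with a separate term for the VE-822-alone groups. BIRC5 and CDCA8, 2 members, were called with those groups left out and with 1 term over all 8 groups. The calls of AURKB, HJURP, KIF20A and TACC3 were lost in limma under each of these other blocks. Shares over all genes are not given for these blocks or for the left-out libraries that follow. With 1 library left out the blocked count was 0 without siNT HU R1, siSETD2 HU R1 or siSETD2 R1 with both drugs, and 1 to 4 without any other HU, VE-822 or combination library. It was 19 without either siSETD2 untreated library.

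The passenger complex and Aurora group had the highest median, 0.48, with 4 of 6 members called with the block. CDCA8 held 26.4, 28.1, 29.9 and 26.7 FPKM with both drugs, above its 17.5, 20.02, 16.8 and 18.2 FPKM in HU without overlap (0.59, SE 0.10; limma adjusted p = 0.151, with the block 0.0132). AURKA held 31.9, 27.4, 37.1 and 27.7 FPKM with both drugs, all above its HU values (0.58, limma adjusted p = 0.190, with the block 0.0251). BIRC5 (chr17:78214186-78225636 on the plus strand) held 26.9, 33.2, 29.99 and 37.04 FPKM with both drugs. These lay above its HU values (0.66 against HU, SE 0.12, limma adjusted p = 0.190, with the block 0.00952). Unlike for any other member, they also lay above all 4 untreated values, though only narrowly (26.9 against 26.7 FPKM).

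HJURP held 14.2, 12.4, 15.8 and 13.2 FPKM with both drugs, without overlap with HU (0.58, limma adjusted p = 0.279, with the block 0.0456). RACGAP1, the centralspindlin subunit that recruits the RhoA activator ECT2, held 14.5, 15.4, 16.5 and 15.2 FPKM in HU and 21.9, 19.7, 25.1 and 20.4 FPKM with both drugs. It did not overlap but narrowly missed the blocked threshold (0.47, limma adjusted p = 0.275, with the block 0.0518). CEP55 held 30.7, 25.6, 32.6 and 28.4 FPKM with both drugs, again above HU (0.50, limma adjusted p = 0.279, with the block 0.0675). KIF20A had the highest log2 fold change of all members, 0.71 (SE 0.23; limma adjusted p = 0.461, with the block 0.0498), and held 13.3, 14.7, 16.7 and 16.3 FPKM. The cohesion and separation group had the lowest median, 0.098. ANLN alone had a negative difference, -0.094. CDC20, at 98.3, 126, 134 and 144 FPKM with both drugs, rose with the block (0.45, limma adjusted p = 0.0253, and 0.390 without it), although siNT R1 with both drugs lay below siSETD2 R2 in HU.

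By pair, 50 members were higher in siNT R1 (median 0.41), 41 in siNT R2 (0.13), 51 in siSETD2 R1 (0.52) and 48 in siSETD2 R2 (0.31), against 46.0% to 54.96% of all genes. Within R1 the median was 0.46 and within R2 0.21. The median was 0.25 in siNT and 0.40 in siSETD2 cells. The difference of these responses had a median of 0.18 over members and 0.040 over all genes and was positive in 45 of 51, where 59.9% of all genes were positive. In limma 0 members were called in it, with or without the block, 0 had an unadjusted p under 0.05, against 0.787% of all genes, and limma-voom called 0.

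**Figure D4:**
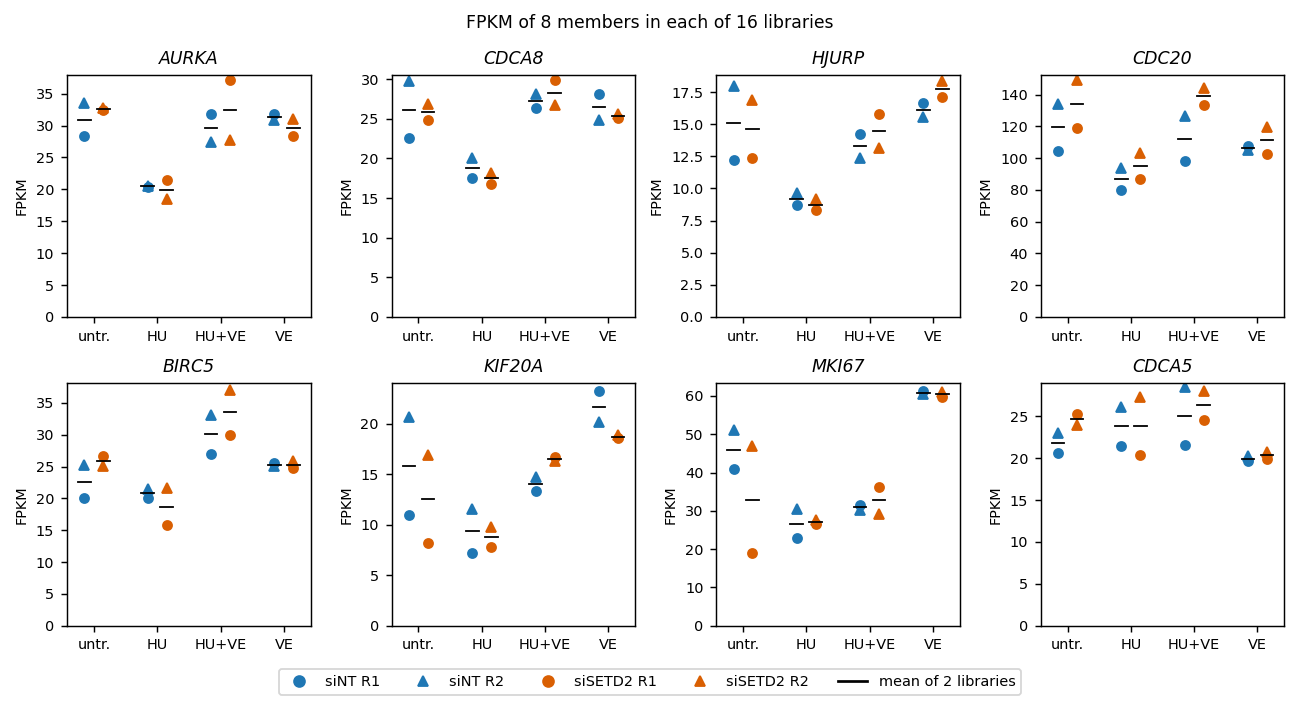
FPKM (y axis, from 0) of 8 members in each library, by treatment (x axis), siRNA (colour) and number (circle R1, triangle R2), with a line at the mean of the 2 libraries of a group. AURKA, CDCA8 and HJURP are lowest in HU, BIRC5 is highest with both drugs, MKI67 is highest with VE-822 alone, and CDCA5 overlaps between untreated cells and HU.

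Between cells with both drugs and untreated cells the members had no common direction on average, and opposite directions in R1 and R2. The median log2 fold change over members was -0.010, against 0.024 over all genes, and 22 members were higher and 29 lower. The median was -0.10 without untreated siNT R1 and 0.10 without untreated siNT R2. The average combined opposite values by number. Within R1 the median was 0.19, and within R2 it was -0.23, where the untreated R2 libraries were high. By pair, 42 of 51 members were higher in siNT R1 and 46 in siSETD2 R1, against 49.2% and 48.6% of all genes. In siNT R2 42 were lower and in siSETD2 R2 40, against 46.1% and 43.1% of all genes. In limma 0 members were called, against 0.0382% of all genes, 1 had an unadjusted p under 0.05, where 13.6% of all genes did, and limma-voom called 0 (0.0458% of all genes). That member was BIRC5, with a log2 fold change of 0.37 (SE 0.12, limma adjusted p = 0.210). BIRC5 was also the 1 member whose libraries were all higher than untreated ones, though only narrowly (4% of all genes had this order). With the replicate block BIRC5 rose (adjusted p = 0.0256 in limma), where 4.07% of all genes were called higher. The call was lost with 1 term over all 8 groups (limma adjusted p = 0.0597) and with the VE-822-alone groups left out (0.0651), and kept with a separate term for them (0.0346). NUSAP1 (0.26; 2.38, 2.94, 2.84 and 2.56 FPKM with both drugs) and MAD2L1 (0.24; 10.4, 13.04, 10.4 and 14.1 FPKM) came next by p and were not called. CENPF, a large kinetochore protein, differed by -0.26, at 23.3, 28.9, 17.9 and 26.7 FPKM untreated and 20.1, 16.6, 26.9 and 16.8 FPKM with both drugs. For TTK the values with both drugs were 7.12, 5.84, 7.36 and 6.21 FPKM (-0.13), and for SKA1 6.90, 6.85, 6.03 and 7.04 FPKM (0.10). All 5 overlapped with untreated cells.

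**Figure D5:**
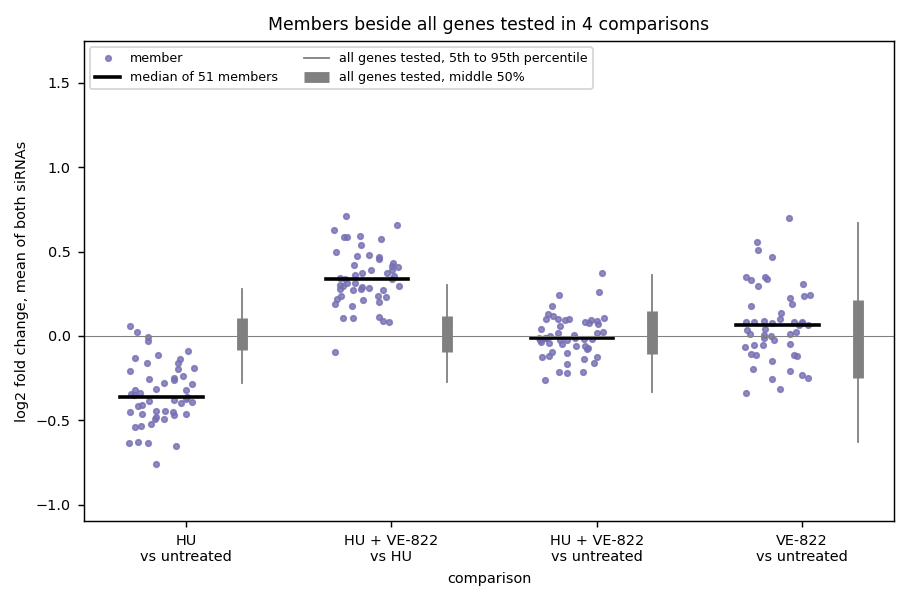
Log2 fold change, mean of both siRNAs (y axis), of each of 51 members (points, with their median as a bar) in 4 comparisons (x axis), beside the middle 50% (thick) and the 5th to 95th percentile (thin) of all genes tested. Members lie mostly below 0 in HU against untreated, above 0 when VE-822 is added to HU, and around 0 in the other comparisons.

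In VE-822 alone the members split. The comparison called 24.7% of all genes in limma but 2 of 51 members, both of which rose, and 11 members had an unadjusted p under 0.05, where 38.7% of all genes did. The median over members was 0.065 and over all genes -0.030, and it was -0.048 without untreated siNT R1 and 0.13 without untreated siNT R2. Cells with both drugs, which also received VE-822, differed from untreated cells in 0.0382% of all genes and from VE-822 alone in 29.5%. The labels do not say whether the VE-822-alone libraries were handled with the others. A share of handling in the differences of this group was not tested. MKI67 held 61.2, 60.6, 59.8 and 61.1 FPKM in VE-822, above all untreated values (0.70, SE 0.22; limma adjusted p = 0.0406). KIF4A held 15.9, 18.5, 15.02 and 17.5 FPKM untreated and 23.6, 20.1, 21.3 and 20.96 FPKM in VE-822, also without overlap (0.35, SE 0.11; limma adjusted p = 0.0371). NDC80 at 31.6, 25.2, 28.8 and 28.5 FPKM was above all untreated values as well, and 4 members in all had this order, against 14.6% of all genes. Of the marker genes, RUNX2 and FN1 (log2 fold changes 1.67 and 1.49) and the T-cell gene CD3D (0.60) also rose and VIM (-0.59) fell in VE-822 alone. The 8 markers of other cell types, of which PTPRC, KRT5 and ALB were at or near 0, summed to 4.22 to 5.26 FPKM against 3.65 to 4.35 FPKM untreated, and the 6 mesenchymal markers to 293 to 340 against 282 to 421 FPKM; their part in the result was not tested.

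In VE-822 alone 9 members were called with the replicate block, against 44.9% of all genes. INCENP, KIF20A, KIF4A, MKI67, NDC80 and TOP2A rose, and CDC20, CEP55 and NEK2 fell. TOP2A, the topoisomerase that untangles sister chromatids, held 48.4, 79.9, 40.95 and 70.1 FPKM untreated and 87.98, 77.9, 84.5 and 79.9 FPKM in VE-822 (0.51, limma adjusted p = 0.0688, with the block 0.0204). CEP55 held 25.4, 20.6, 21.2 and 21.6 FPKM (-0.34, limma adjusted p = 0.0631, with the block 0.0356) and NEK2 8.38, 7.69, 7.09 and 7.01 FPKM (-0.31, 0.0790 and 0.0328). These 3 genes overlapped with untreated cells by at least 1 library. Within R1 the median over members was 0.27 and within R2 -0.16, so the direction depended on the number here too. Without the block 0 members were called when any 1 of the 4 VE-822 libraries was left out, 5 without untreated siNT R2 and 9 without untreated siSETD2 R2. Both calls were also lost without untreated siNT R1, without untreated siSETD2 R1 and with no filter, and that of MKI67 without untreated siNT R2, siSETD2 HU R1 or R2, or siNT R1 or R2 with both drugs.

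Against VE-822 alone, a comparison added after the values were seen, cells with both drugs had lower levels of 6 members and higher levels of 2 in limma, where 29.5% of all genes were called. MKI67 fell most (-0.91, adjusted p = 0.0118), at 31.5, 30.2, 36.3 and 29.2 FPKM with both drugs. CENPE (-0.69), TOP2A (-0.60), CENPF (-0.59), NDC80 (-0.39) and KIF4A (-0.37) also fell. CEP55 (0.38) and PTTG1 (0.32) rose. With the replicate block 14 were called, against 48.9% of all genes. These differences rest on the same VE-822-alone libraries, and a share of handling in them was not tested.

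Between siSETD2 and siNT cells no member passed the test. Over the 4 treatments the median log2 fold change of siSETD2 against siNT was -0.025 (all genes -0.0075), with a range of -0.23 to 0.17 over members. This median was -0.073 without untreated siNT R1 and 0.027 without untreated siNT R2. In limma 0 members were called with or without the block, against 3.88% and 0.13% of all genes, and limma-voom called 0 (0.138%). At an unadjusted p under 0.05 there was 1 member, against 10% of all genes. That member was KIF20B, a kinesin of late cytokinesis (-0.23, SE 0.10, limma adjusted p = 0.497). It held 14.6, 19.7, 9.07 and 14.9 FPKM untreated, 11.6, 13.7, 11.05 and 10.6 FPKM in HU, 16.9, 13.5, 13.6 and 12.96 FPKM in VE-822 and 13.1, 12.5, 12.7 and 12.4 FPKM with both drugs, and the difference was largest in untreated cells (-0.50). The next by p were SKA1 (-0.12), CDC20 (0.17), SPAG5 (astrin), which stabilises attachments, (-0.16), NUSAP1 (-0.15) and NEK2 (-0.14). SPAG5 held 16.7, 21.9, 13.9 and 19.4 FPKM untreated, 13.9, 16.4, 12.2 and 14.1 in HU, 21.7, 18.1, 18.2 and 17.3 in VE-822 and 17.7, 18.1, 17.2 and 16.7 with both drugs.

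With both drugs 40 of 51 members were higher in siSETD2 than in siNT cells, where 52.8% of all genes were, and the median was 0.092. It was 0.17 within R1 and 0.034 within R2, and 0.020 without siSETD2 R1 with both drugs. In limma 0 members and 0% of all genes were called, with or without the block, 0 members had an unadjusted p under 0.05, against 2.18% of all genes, and limma-voom called 0. The smallest p belonged to TPX2 at 66.1, 63.6, 87.2 and 72.4 FPKM (0.29, 95% interval -0.030 to 0.61). CDC20 at 98.3, 126, 134 and 144 FPKM (0.31), KIF2C, a microtubule-removing kinesin at centromeres, at 39.9, 39.4, 52.95 and 43.8 FPKM (0.27) and NDC80 (0.22) followed. DLGAP5, a spindle microtubule stabiliser, was at 25.6, 24.5, 32.8 and 27.3 FPKM (0.25) and HMMR, a spindle pole adaptor, at 12.4, 11.1, 17.2 and 11.5 FPKM (0.24). For DLGAP5 and HMMR the siSETD2 R1 library was high and the others near each other.

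The response to HU did not differ detectably between siRNAs. The difference siSETD2 minus siNT had a median of 0.019 over members (all genes -0.010). Its sign and size turned on 1 library, with -0.16 without untreated siNT R2 and 0.20 without untreated siNT R1. In it 0 members and 0% of all genes were called in limma with or without the block, 0 members had an unadjusted p under 0.05, against 0.741% of all genes, and limma-voom called 0. The intervals were wide. The smallest p values were those of SKA1 (-0.34, 95% interval -0.71 to 0.031), AURKB (-0.33; 21.2, 24.8, 27.9 and 26.2 FPKM untreated, 19.03, 21.4, 17.3 and 20.4 FPKM in HU), BIRC5 (-0.35), PTTG1 (-0.29), MKI67 (0.64, -0.34 to 1.61) and KIF20B (0.30). The MKI67 difference was 0.0022 without the low untreated siSETD2 R1 library.

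Most members followed a shared profile over the 16 libraries. The correlation of each member's log2(FPKM + 1) with the mean of the other members, given as a description over 16 libraries that share treatments and depth, had a median of 0.817, and 28 members were above 0.8. It was highest for HJURP (0.941), DLGAP5 (0.938) and KIF23 (0.931), the kinesin of centralspindlin. CDCA5 (-0.13), MAD2L1 (0.234) and PTTG1 (0.371) were lowest. CDCA5 was at 19.6, 20.3, 19.9 and 20.8 FPKM in VE-822 alone and 21.5, 28.5, 24.6 and 28.03 FPKM with both drugs.

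Other genes of the same pathways, in lists set by name, had medians nearer to 0. Members and lists were drawn up with earlier results of these data known, so this contrast is a description only. In HU the median was -0.19 over 24 mitotic cyclins, CDK1 and their regulators, -0.035 over 37 other kinetochore genes, -0.071 over 29 other spindle genes, 0.044 over 17 other condensin and cohesin genes and -0.011 over 14 other cytokinesis genes. In limma without the block 1 kinetochore gene and 1 spindle gene of these lists were called, both lower. CENPA, the centromeric histone, held 11.2, 13.7, 12.5 and 13.5 FPKM untreated, 6.12, 6.43, 7.26 and 6.49 FPKM in HU and 14.6, 12.9, 17.9 and 14.3 FPKM with both drugs. It fell in HU (-0.85, SE 0.096, limma adjusted p = 0.0155) and rose when VE-822 was added (1.07, adjusted p = 0.00348). PSRC1, a spindle microtubule protein, held 13.9, 27.1, 16.5 and 26.4 FPKM untreated and 5.77, 6.81, 6.20 and 7.69 FPKM in HU and fell (-1.48, SE 0.19, limma adjusted p = 0.0225). With the replicate block, where 0.749% of all genes were called lower and 0.848% higher, 3 of the 24 cyclin and regulator genes fell and 1 rose, 5 of the 29 spindle genes and 1 of the 37 kinetochore genes fell, and 0 of the condensin, cohesin and cytokinesis genes were called. The 3 that fell, named after their values were seen, were UBE2C (-0.69), PLK1 (-0.61) and CDC25C (-0.47), which are a ubiquitin-conjugating enzyme of the anaphase-promoting complex, a mitotic kinase and a CDK1-activating phosphatase. The 1 that rose was CDC25A (0.41, limma adjusted p = 0.0471 with the block and 0.173 without it), a phosphatase that activates CDKs and is known from G1 and S phase as well. Over 27 E2F targets of G1 and S phase the median in HU was 0.24, with 26 higher, and over 23 p53 targets 0.42, with 23 higher, where 53.5% of all genes were higher. In limma with the block 1 and 7 of these rose, against the 0.848% of all genes called higher, and none fell.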

How the data were processed

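Per the labels, RNA was sequenced from 16 U2OS libraries, 2 in each of 8 groups. The authors deposited 1 table of FPKM per gene for all libraries. Per the submitters' processing notes, DESeq2 1.26.0, featureCounts 1.5.0-p3, STAR 2.6.1d and FastQC were among the tools, with hg38 as the build; which step used strand is not given in the sources used here. All 58735 gene IDs matched GENCODE 29. The deposited FPKM values gave whole fragments for 100% of values within 0.01, with 22310806 to 31101932 fragments a library. The library size that the FPKM values were divided by was 0.94 to 1.07 of this total, so it was not the total itself.

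Values were tested as log2(FPKM + 1) in limma 3.58.1 (R 4.3.3), with 1 mean per group over the 8 groups and p-values adjusted by Benjamini-Hochberg over the 13088 genes averaging 1 FPKM or more, at a threshold of 0.05. Comparisons over both siRNAs average the siNT and siSETD2 differences. HU against untreated and both drugs against HU share the HU libraries, and 3 comparisons share the untreated ones. The limma fit without a block was tested for HU against untreated on simulated data with independent libraries. The blocks, limma-voom and the motif search were not tested in this way. R1 minus R2 correlated across genes at 0.363 to 0.746 in all 15 pairings among the 6 groups without VE-822 alone, and at -0.052 to 0.295 in the 12 pairings of such a group with a VE-822-alone one, while the VE-822-alone pair correlated at 0.395. A replicate block was therefore fitted for the 6 groups, and a block with a separate term for the VE-822-alone groups was added after the values were seen. Whether the numbers mark shared days or cultures is not stated.

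Values in every library are given for the 12 members with the smallest p in HU, the 6 with the smallest p in each other comparison, and the highest and lowest of each role in HU; the remaining members are covered by counts and ranges, or by values where they are called with the block. Members and gene lists were chosen with earlier results of these data known. RefSeq windows were searched for exact letters. Alternatives were another pseudocount, other filters and scalings, other blocks, limma-voom on recovered fragments, a robust variance prior and each library left out.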

Additional observations from a re-analysis of the deposited data

How the results depend on the processing

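Counts of members called were the same or close under another pseudocount, other scalings, a higher filter, limma-voom without a block and a robust prior. With no filter on low values 2 calls became 0 in VE-822 alone and 8 became 3 for both drugs against VE-822 alone. They moved with the replicate block. In HU against untreated 0 members without a block became 11 with the replicate block in the 6 groups, 2 with it over all 8 groups, 3 with it and the VE-822-alone groups left out, 6 with a separate term for those groups, and 19 with it in limma-voom. For both drugs against HU these counts were 9, 2, 2, 5 and 19. For both drugs against untreated, BIRC5 was the 1 call with the replicate block in the 6 groups, in limma and in limma-voom, and also the 1 call with the separate term, while 0 were called with the other blocks. In VE-822 alone 2 became 9 with the replicate block in the 6 groups, where all genes went from 24.7% to 44.9%. The count was 7 with the block over all 8 groups, 10 with the separate term and 13 in limma-voom, without shares given. For both drugs against VE-822 alone 8 became 14 with the replicate block in the 6 groups, where all genes went from 29.5% to 48.9%. It was 16 in limma-voom. In both comparisons members were called less often than all genes, with and without the block in the 6 groups. The block changed no call for siSETD2 against siNT or for its difference in HU response. VE-822 against untreated and siSETD2 against siNT over 4 treatments have no value with the VE-822-alone groups left out.

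With each library left out in turn, where the lone library of a group is assumed to vary like the other groups, counts ran from 0 to 3 in HU, 0 to 9 in VE-822 alone, 1 to 10 for both drugs against VE-822 alone, and 0 to 0 in the other comparisons. With the replicate block they ran from 0 to 22 in HU and 0 to 19 for both drugs against HU. The median over members in HU ran from -0.46 to -0.27. Signs turned in genes near 0, of which the ranges in HU were -0.10 to 0.22 for ANLN, -0.093 to 0.082 for NCAPH, -0.076 to 0.13 for CDCA5, -0.096 to 0.036 for MAD2L1 and -0.20 to 0.017 for NUSAP1. HMMR in siSETD2 against siNT with both drugs ran from -0.030, without siSETD2 R1, to 0.52, and the KIF20B difference in HU response from -0.028, without untreated siSETD2 R1, to 0.63. The causes were not tested. With 2 libraries a group, the number of libraries limits the precision of every difference given here.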
